A study of Homo sapiens with 16 samples.

Results

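The genes of cholesterol and fatty acid synthesis were examined for their level in 8 human B-cell lines and for their difference between AFN700 and solvent. The list held 33 gene symbols. Each symbol was matched through the platform annotation to probe sets that name a single gene, and the probe set with the highest mean signal stood for the gene. This gave 30 measured genes of 19775 genes measured in all, of which 23 were sterol genes and 7 were fatty acid genes. FDFT1, CYP51A1 and FADS1 had no probe set of their own and are not analysed here.

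The study cultured 8 lines, which the design text calls mantle cell lymphoma cells, for 20 hours in fresh medium with 5 uM AFN700 or with the solvent DMSO at 0.025%. AFN700 inhibits IKKbeta, the kinase that releases NF-kB transcription factors from their inhibitor. For "stn/ibrutinib" sensitivity, the labels of REC-1 and SP49 read sensitive. Those of JVM-2, JVM-13, GRANTA-519, HBL-2, Maver-1 and Z-138 read insensitive. The medium was DMEM for GRANTA-519 and RPMI for the 7 others, all with fetal bovine serum, so medium and line cannot be told apart there. The JVM-13 array titled AFN700 reads AFN701 in its treatment and description fields, and it was used here as the treated array of that line. A line had 1 Affymetrix array per treatment, 16 in all. The line is therefore the replicate, a value of a single line has no error of its own, and p-values measure the spread between lines and their single arrays.

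Cells make cholesterol from acetyl-CoA through mevalonate and squalene, and most enzymes of the route are induced together by the transcription factor SREBP-2, encoded by SREBF2. SREBPs are held in the endoplasmic reticulum with their escort SCAP by the INSIG proteins when sterols are plentiful, and travel to the Golgi for cleavage when sterols are scarce. SREBP-1, encoded by SREBF1, acts more on fatty acid synthesis, and a sterol regulatory element next to a CCAAT box, which binds NF-Y, is a common arrangement in promoters of these genes.

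Promoter windows from RefSeq (GRCh38.p14), the 250 bases before each annotated start, were held for 29 of the 33 genes. The core TCACNCCAC of the sterol regulatory element, searched on both strands, was present before 1 of the 29 genes, SREBF2, and before 1.09% of 27305 genes (0.883% of 35116 windows, since a gene can have several). The motif CCAAT, also searched on both strands, was present before 20 of the 29 genes and before 37.0% of all genes. A search of exact letters in this window says nothing about factors that bind looser forms of a motif or sites elsewhere. Windows of 4 genes that the results return to are given below, 5′ to 3′ on the strand of the gene. Capitals mark the sterol element core and CCAAT, which reads ATTGG on the opposite strand, and the matches do not overlap each other. SREBF2, at chr22:41832855-41833104 (+), is shown as the single gene with the core, whose first base lies 133 bases before the start. MSMO1, at chr4:165327419-165327668 (+), had the DMSO level most like that of HMGCS1 and held 4 CCAAT matches. EBP, at chrX:48521558-48521807 (+), and FDPS, at chr1:155308616-155308865 (+), each held 3 CCAAT matches and had lower DMSO values in the sensitive lines.
SREBF2: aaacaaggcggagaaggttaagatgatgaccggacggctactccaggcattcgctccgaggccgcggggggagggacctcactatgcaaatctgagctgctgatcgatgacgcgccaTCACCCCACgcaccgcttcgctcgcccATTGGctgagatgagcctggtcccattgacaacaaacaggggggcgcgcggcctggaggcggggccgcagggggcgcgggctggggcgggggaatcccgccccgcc
MSMO1: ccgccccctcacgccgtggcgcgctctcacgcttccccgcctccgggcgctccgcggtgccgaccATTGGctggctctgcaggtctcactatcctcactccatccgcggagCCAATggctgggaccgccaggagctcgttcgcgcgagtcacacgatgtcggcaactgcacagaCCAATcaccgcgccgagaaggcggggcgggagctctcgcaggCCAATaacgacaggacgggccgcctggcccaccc
EBP: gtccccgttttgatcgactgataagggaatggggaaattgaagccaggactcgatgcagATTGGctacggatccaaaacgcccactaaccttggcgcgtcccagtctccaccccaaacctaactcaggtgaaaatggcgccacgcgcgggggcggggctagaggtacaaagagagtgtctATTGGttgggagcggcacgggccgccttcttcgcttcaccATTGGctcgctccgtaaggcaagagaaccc
FDPS: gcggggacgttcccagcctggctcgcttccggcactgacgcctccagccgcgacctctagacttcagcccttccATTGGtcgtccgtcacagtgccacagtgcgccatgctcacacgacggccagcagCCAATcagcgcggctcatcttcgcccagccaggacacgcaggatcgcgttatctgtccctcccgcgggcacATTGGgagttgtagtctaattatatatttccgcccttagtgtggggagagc

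Levels are linear MAS5 intensities, with no detection call, so a low value cannot be told from background. Log2 differences were taken on log2(intensity + 3.3), which understates changes of low genes. In these bulk samples fewer cells that express a gene and less RNA per cell cannot be told apart. The 6 measured B-cell markers of 7 listed had summed intensities of 5178 to 10470 over the DMSO arrays and 6072 to 11510 over the AFN700 arrays. MS4A1, which encodes CD20, lay between 3178 and 5372. All 5 T-cell markers had a probe set, with sums of 13.7 to 2255 on DMSO arrays and 18.6 to 2730 on AFN700 arrays, the highest from TRBC1 in REC-1, while CD2 did not exceed 10.9 on any array. Sums on DMSO arrays were 16.6 to 270.2 for the 5 myeloid markers, 16.2 to 627 for the 4 fibroblast markers and 23.6 to 410.5 for the 4 epithelial markers. On AFN700 arrays they were 20.0 to 379.6, 9.5 to 327.8 and 16.8 to 496.3. CD14, COL1A2, COL3A1, DCN and KRT19 stayed at or below 17.2 on all arrays, while the highest values were 303.8 for LYZ, 249.5 for ITGAM, 613.9 for COL1A1, 357.1 for EPCAM and 111.8 for KRT18. The part of these markers in the results was not tested. JVM-13 had an unusual DMSO array. Its median log2 level over the tested genes was 7.25, where all others lay between 7.82 and 8.02, and its correlation with the AFN700 array of the line was 0.924 over genes, where the other lines had 0.964 to 0.990. The counts of calls and the members and related genes whose values moved with it are therefore also given without JVM-13. RNA integrity is reflected in the actin 3′/5′ ratio, which was 1.90 with DMSO and 16.7 with AFN700 in HBL-2, and 10.3 and 18.8 in Maver-1. It lay between 2.01 and 6.39 on the arrays of the 6 other lines.

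The first comparison asked whether the inhibitor changed the members over the 8 lines. None of the 30 genes passed the threshold of an adjusted p under 0.05, and neither did any of the 12305 genes tested (0%). All 30 measured members passed the filter on low signal. At an unadjusted p under 0.05 stood 1 of the 30 members, FADS2, against 8.18% of all genes tested. Mean differences of the sterol genes ran from -0.23 to 0.28 with a median of 0.04, those of the fatty acid genes from -0.23 to 0.61 with a median of 0.01, and the median over all genes tested was 0.06. No member had the same sign in all 8 lines, which 1.98% of all genes did upward and 0.414% downward. The tests are those of limma with the cell line as a block and Benjamini-Hochberg adjustment over all genes tested.

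**Figure D1:**
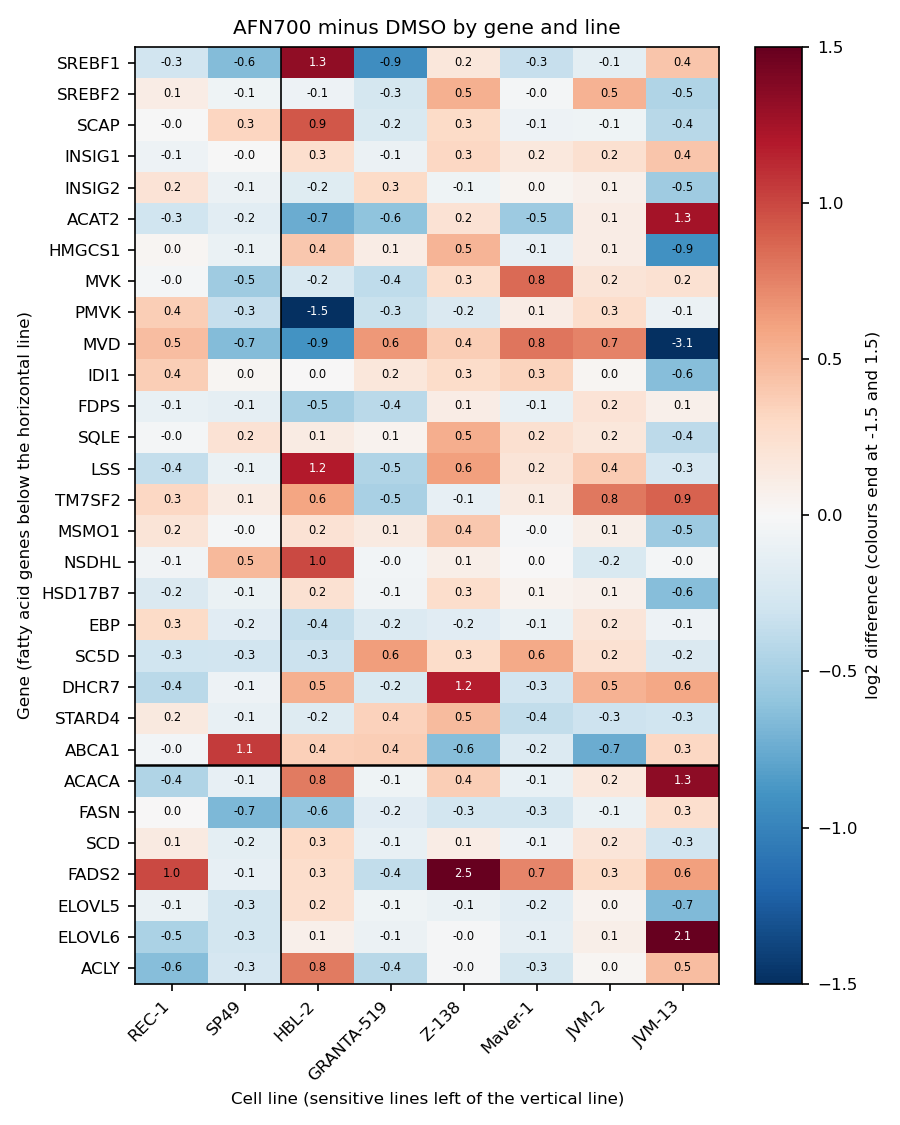
AFN700 minus DMSO on the log2 scale for each of 30 genes (rows) in each of 8 lines (columns), 1 pair of arrays per cell, red for higher and blue for lower with AFN700. Sterol genes of Z-138 and JVM-2 are mostly red (18 of 23 higher in each). The darkest cells lie past the ends of the colour scale. They are MVD in JVM-13 (-3.12), FADS2 in Z-138 (2.50), ELOVL6 in JVM-13 (2.05) and PMVK in HBL-2 (-1.54).

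Among the regulators, INSIG1, which retains the SREBP escort in the endoplasmic reticulum and is itself an SREBP target, had the smallest unadjusted p of the sterol genes. Its intensity went from a lowest of 1505, a median of 1943 and a highest of 2161 with DMSO to 1570, 2154 and 2733 with AFN700. The ranges overlap, and AFN700 was higher in 5 of 8 lines, with a mean log2 difference of 0.15 ± 0.08 (SE, n = 8 lines; limma adjusted p = 0.63). INSIG2, its paralog, differed by -0.03 ± 0.13, and by 0.04 ± 0.10 without JVM-13. SREBF2 differed by 0.04 ± 0.13 and SCAP by 0.09 ± 0.16. SREBF1 was dim, with DMSO intensities of 15.4 to 73.7, and differed by -0.05 ± 0.23. It had opposite signs in lines of the same label, with 15.4 on DMSO and 43.9 on AFN700 in HBL-2 but 31.4 and 14.9 in GRANTA-519.

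Of the mevalonate enzymes, HMGCS1, which makes HMG-CoA, differed in both directions. Its DMSO and AFN700 intensities were 1850 and 1891 in REC-1, 2034 and 1904 in SP49, 2293 and 2485 in GRANTA-519, and 2607 and 3462 in HBL-2. They were 1712 and 1846 in JVM-2, 2865 and 1524 in JVM-13, 1551 and 1419 in Maver-1, and 1330 and 1901 in Z-138. A dimmer probe set was higher with AFN700 in 3 of 8 lines, with a mean of -0.27 and its largest decrease in HBL-2 (-1.69). On the probe set of these intensities, the groups overlap throughout and 5 lines were higher with AFN700. JVM-13 held the single large decrease on it. The mean difference was 0.01 ± 0.13 over 8 lines and 0.14 ± 0.08 over the 7 lines without JVM-13 (SE; limma adjusted p = 1.0 and 0.45).

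PMVK, the second kinase of the mevalonate route, had the most negative mean of the sterol genes over 8 lines. The pairs of intensities, DMSO first, were 436 and 563 in REC-1, 494 and 388 in SP49, 958 and 760.0 in GRANTA-519, and 1657 and 567 in HBL-2. They were 898 and 1075 in JVM-2, 477 and 448 in JVM-13, 340 and 367 in Maver-1, and 709 and 607 in Z-138. AFN700 was lower in 5 of 8 lines, and the large difference was in HBL-2 (-1.54), where the actin ratio also differed most between the arrays. The mean was -0.23 ± 0.18 (SE, n = 8 lines; limma adjusted p = 0.74), -0.24 ± 0.18 without JVM-13, -0.04 ± 0.12 without HBL-2, and 0.18 ± 0.15 with the actin 3′/5′ ratio as a covariate.

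MVD, which decarboxylates mevalonate pyrophosphate, was dim and the most variable of the sterol genes. DMSO and AFN700 intensities were 15.5 and 22.7 in REC-1, 20.8 and 12.0 in SP49, 54.9 and 88.0 in GRANTA-519, and 48.1 and 24.3 in HBL-2. They were 41.8 and 72.0 in JVM-2, 166 and 16.2 in JVM-13, 6.8 and 14.3 in Maver-1, and 13.5 and 18.4 in Z-138. Values were higher with AFN700 in 5 of 8 lines, and the sign of the mean turned with JVM-13. It was -0.21 ± 0.38 over 8 lines and 0.21 ± 0.23 over the 7 others (SE; limma adjusted p = 0.90 and 0.70).

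IDI1, which isomerises isopentenyl pyrophosphate, was higher with AFN700 in 7 of 8 lines, by 0.01 in HBL-2 to 0.37 in REC-1, and its difference was -0.64 in JVM-13. The mean was 0.07 ± 0.10 over 8 lines and 0.17 ± 0.07 without JVM-13 (SE; limma adjusted p = 0.87 and 0.26). A second probe set of IDI1, nearly as bright, was higher in 5 of 8 lines, with a mean of 0.02. ACAT2, which joins acetyl-CoA units at the start of the route, had the opposite sign in most lines. It was lower with AFN700 in 5 of 8 lines and higher in JVM-13, at 814 and 1944 (1.25 on the log2 scale). The mean went from -0.10 ± 0.19 over 8 lines to -0.29 ± 0.12 without JVM-13 (SE; limma adjusted p = 0.91 and 0.28). MVK, the first mevalonate kinase, differed by 0.04 ± 0.18, and FDPS, which makes farnesyl pyrophosphate, by -0.11 ± 0.09.

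Among the enzymes of the sterol steps, TM7SF2, a sterol reductase, had the highest mean. With DMSO and then AFN700 its intensities were 79.4 and 99.0 in REC-1, 67.8 and 74.4 in SP49, 177 and 125 in GRANTA-519, and 135 and 205 in HBL-2. They were 48.7 and 86.8 in JVM-2, 29.5 and 57.1 in JVM-13, 146 and 160 in Maver-1, and 110.1 and 101 in Z-138. AFN700 was higher in 6 of 8 lines, with overlapping ranges and a mean of 0.28 ± 0.18 (SE, n = 8 lines; limma adjusted p = 0.69). It was 0.19 ± 0.16 without JVM-13 and 0.13 ± 0.15 after quantile normalization.

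DHCR7, which performs the last reduction to cholesterol, was higher with AFN700 in 4 of 8 lines and lower in 4. The pairs of intensities, DMSO first, were 171 and 128 in REC-1, 66.0 and 62.5 in SP49, 204 and 174 in GRANTA-519, and 239 and 348 in HBL-2. They were 102 and 148 in JVM-2, 106 and 160 in JVM-13, 270 and 221 in Maver-1, and 22.1 and 54.1 in Z-138. Z-138, whose DMSO value was the lowest of the 8, differed most, and the mean was 0.23 ± 0.19 (SE; limma adjusted p = 0.75). It was 0.09 ± 0.19 without Z-138, 0.18 ± 0.19 without JVM-13 and 0.10 ± 0.18 after quantile normalization. The dimmer probe set of DHCR7 had a mean of 0.01 over 8 lines, with 0.30 in Z-138, 0.55 in JVM-2 and -0.64 in HBL-2.

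SQLE, the squalene epoxidase, was higher with AFN700 in 6 of 8 lines, and its mean was 0.12 ± 0.10 over 8 lines and 0.19 ± 0.08 without JVM-13 (SE; limma adjusted p = 0.76 and 0.30). Its dimmer probe sets had means of -0.44, -0.22 and -0.30 over 8 lines and were higher with AFN700 in 3 or 4 lines. LSS, the lanosterol synthase, differed by 0.15 ± 0.17, with 407 on DMSO and 932 on AFN700 in HBL-2. NSDHL, of the C4 demethylation complex, differed by 0.15 ± 0.13 and also rested on HBL-2 (0.99). MSMO1, the C4 methyl oxidase, differed by 0.06 ± 0.09, HSD17B7 by -0.05 ± 0.13 (0.04 ± 0.10 without JVM-13), EBP, the sterol isomerase, by -0.08 ± 0.08, and SC5D, the C5 desaturase, by 0.07 ± 0.14. Dimmer probe sets of EBP had means of -0.32, -0.40 and -0.26 over 8 lines, the last near background. STARD4, a carrier of sterol inside the cell, differed by -0.04 ± 0.13. ABCA1, the cholesterol exporter induced by liver X receptors, differed by 0.06 ± 0.20, and was at least 2-fold higher in SP49 alone, at 67.3 and 143.

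Of the fatty acid genes, FADS2, the delta-6 desaturase of polyunsaturated fatty acids, had the largest mean of all 30 members. DMSO and AFN700 intensities were 2.5 and 8.2 in REC-1, 66.0 and 60.3 in SP49, 134 and 103 in GRANTA-519, and 94.0 and 113 in HBL-2. They were 155 and 190 in JVM-2, 62.3 and 97.0 in JVM-13, 8.8 and 16.8 in Maver-1, and 4.4 and 40.2 in Z-138. AFN700 was higher in 6 of 8 lines, and the lines with the large differences were those near background with DMSO, REC-1, Z-138 and Maver-1. The mean was 0.61 ± 0.27 over 8 lines and 0.61 ± 0.28 over 7 (SE; limma unadjusted p = 0.041 and 0.048, adjusted p = 0.60 and 0.33). The value without JVM-13 is thus the same, but without Z-138 the mean was 0.34 ± 0.20 (limma adjusted p = 0.80). A pseudocount of 16 gave 0.35 ± 0.17, and the mean of its probe sets 0.40 ± 0.20.

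FASN, the fatty acid synthase, was lower with AFN700 in 6 of 8 lines, at 61.7 on both arrays in REC-1 and higher in JVM-13. With DMSO and then AFN700 its intensities were 58.5 and 35.3 in SP49, 92.8 and 82.1 in GRANTA-519, 98.0 and 64.5 in HBL-2, and 114 and 93.9 in Z-138. They were 102 and 94.5 in JVM-2, 46.3 and 37.8 in Maver-1, and 49.5 and 59.6 in JVM-13. The ranges overlap, and the mean was -0.23 ± 0.16 over 8 lines and -0.30 ± 0.14 without JVM-13 (SE; limma adjusted p = 0.70 and 0.36).

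ACACA, the acetyl-CoA carboxylase that commits carbon to fatty acids, was higher with AFN700 in 4 of 8 lines. The pairs of intensities, DMSO first, were 824 and 602 in REC-1, 664 and 610 in SP49, 592 and 564 in GRANTA-519, and 787 and 1351 in HBL-2. They were 538 and 603 in JVM-2, 280.5 and 717 in JVM-13, 627 and 582 in Maver-1, and 494 and 640.0 in Z-138. The mean of 0.24 ± 0.18 rested on JVM-13 and HBL-2 (SE, n = 8 lines; limma adjusted p = 0.72) and was 0.08 ± 0.13 without JVM-13. A second, dimmer probe set of the gene was lower with AFN700 in 8 of 8 lines, by -0.23 in HBL-2 to -2.25 in JVM-13, with a mean of -0.86 ± 0.63 (SD, n = 8 lines). Its DMSO level ran opposite to that of the brighter probe set over the lines (r = -0.83, n = 8). The direction of ACACA was therefore not settled by these arrays.

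**Figure D2:**
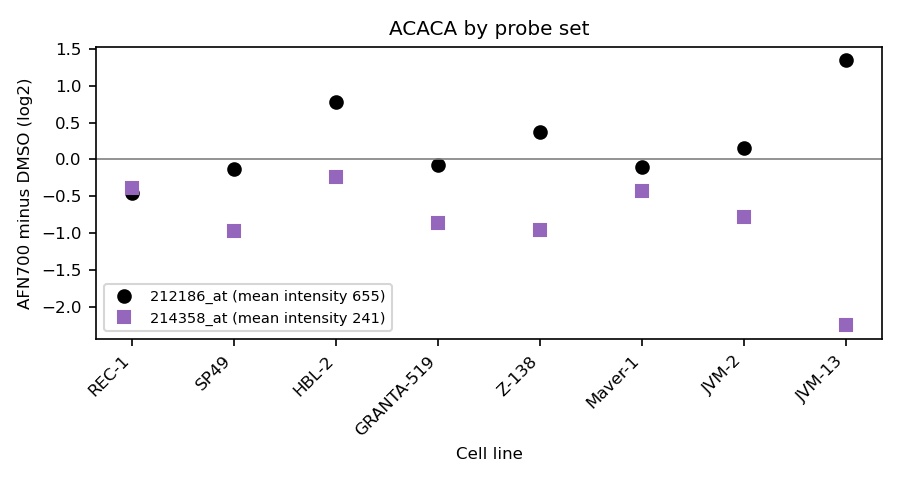
AFN700 minus DMSO (log2) of the 2 probe sets of ACACA in each of the 8 lines, circles for the brighter and squares for the dimmer one. The squares are below 0 in all 8 lines, the circles in 4, and the gap is widest in JVM-13 (1.34 against -2.25).

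SCD, the stearoyl-CoA desaturase, lay between 2016 and 3250 with DMSO and differed by 0.01 ± 0.07. Its dimmer probe sets, with mean intensities of 1045, 49.5 and 40.8, had lower means, at -0.29, -0.59 and -0.44 over 8 lines. ELOVL5, an elongase of polyunsaturated fatty acids, differed by -0.13 ± 0.09, and ACLY, which makes cytosolic acetyl-CoA from citrate, by -0.04 ± 0.14. ELOVL6, the elongase of saturated chains, was 219 with DMSO and 921 with AFN700 in JVM-13, and its difference lay between -0.47 and 0.08 in the 7 other lines. Its mean was 0.15 ± 0.22 over 8 lines and -0.12 ± 0.09 without JVM-13 (SE; limma adjusted p = 0.88 and 0.55).

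Without JVM-13, 10 of 12160 genes passed the threshold (0.0822%), none of them a member. Among the members, 5 of 30 had an unadjusted p under 0.05 against 15.1% of the genes tested, a share near the background. They were IDI1, SQLE, MSMO1 and FADS2, with positive means on the probe set that stood for the gene, and ACAT2, with a negative one. MSMO1 had a mean of 0.14 ± 0.06 there (limma adjusted p = 0.33). On the probe sets that stood for the genes, IDI1 was the single member with 1 sign in all 7 lines. Of all genes, 3.91% did so upward and 2.01% downward. The second probe set of IDI1 was at -0.03 in HBL-2 and -0.07 in GRANTA-519.

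**Figure D3:**
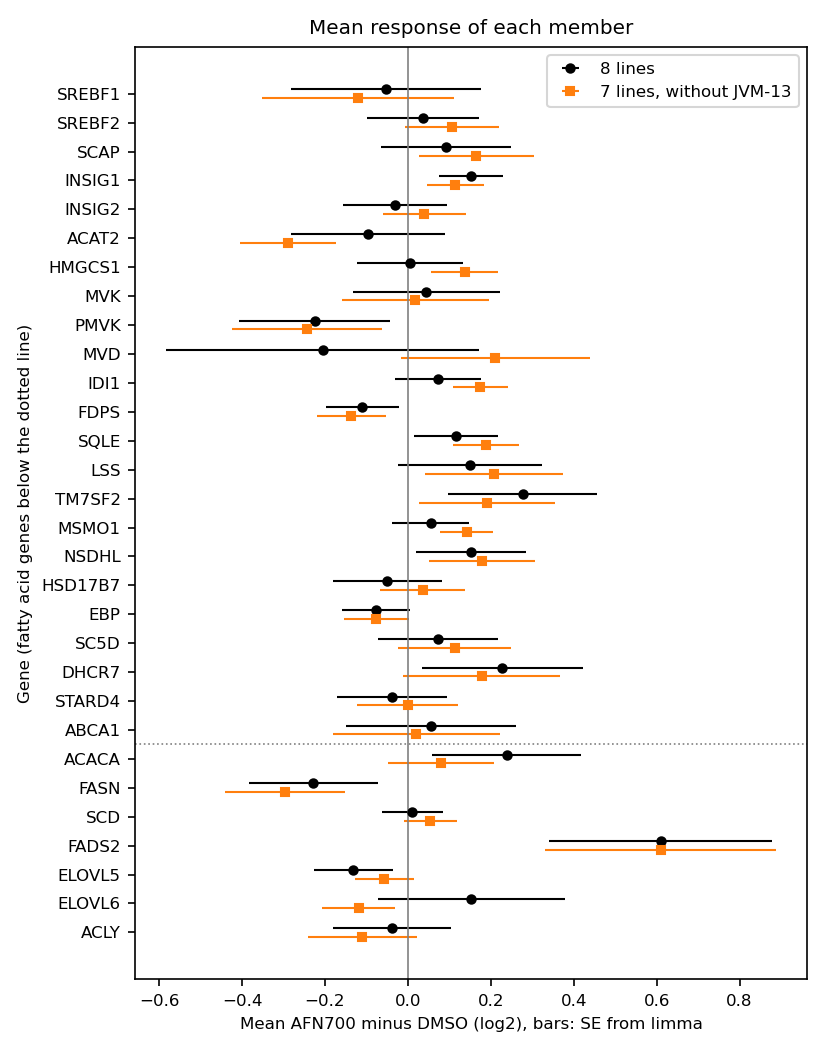
Mean AFN700 minus DMSO (log2) of the 30 genes with the limma standard error, over 8 lines (black circles) and over the 7 lines without JVM-13 (orange squares). FADS2 is highest at 0.61, most others lie close to 0, and the means of MVD, ELOVL6, INSIG2 and HSD17B7 change sign when JVM-13 is left out.

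Taken line by line, the sterol genes did not share a direction. In Z-138 and JVM-2, 18 of 23 were higher with AFN700, where 54.5% and 51.1% of all genes tested were, and the medians were 0.28 and 0.17 against 0.03 and 0.01 over all genes. HBL-2 had 13 of 23 higher (60.6% of all genes), Maver-1 12 (50.6%), REC-1 10 (54.7%), GRANTA-519 9 (44.9%), JVM-13 8 (61.0%) and SP49 6 (55.4%). Sterol medians were 0.12 in HBL-2, 0.003 in Maver-1, -0.03 in REC-1, -0.08 in GRANTA-519, -0.09 in SP49 and -0.21 in JVM-13. The median over all genes was 0.27 in JVM-13 and 0.17 in HBL-2, and between -0.05 and 0.05 in the 6 other lines. Each of these values comes from 1 pair of arrays and was not tested.

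The fatty acid genes were split otherwise. AFN700 was higher for 6 of 7 in HBL-2 and JVM-2, 5 in JVM-13, 3 in Z-138, 2 in REC-1, 1 in Maver-1 and 0 in SP49 and GRANTA-519. Medians ran from -0.25 in SP49 to 0.46 in JVM-13. The fatty acid median was below the sterol median in 6 of 8 lines, by most in Z-138, at -0.02 against 0.28. It was above it in HBL-2 and JVM-13. With each array centred on its median, the fatty acid median of JVM-13 changed from 0.46 to -0.20 and its sterol median from -0.21 to -0.88, while that of all genes went from 0.27 to -0.39. The sterol median of HBL-2 went from 0.12 to -0.09 with the same centring, and those of Z-138 and JVM-2 were then 0.27 and 0.17. The counts by line rest on the probe set that stood for each gene. In HBL-2, ACLY was 0.78 there but -0.45 and -1.09 on dimmer probe sets. ACACA was 0.78 against -0.23, while ELOVL6 was 0.08, 0.19 and 0.24. With the mean of all probe sets, 5 of 7 fatty acid genes were higher in HBL-2, JVM-2 and Z-138, and 4 in JVM-13. REC-1 had 3, and Maver-1, SP49 and GRANTA-519 had 1 each.

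At least 2-fold differences, counted on the log2(intensity + 3.3) scale and on the probe set that stood for each gene, were few. They were found for ABCA1 in SP49 (3.72% of all genes there), for SREBF1, PMVK and LSS in HBL-2 (14.3%) and for DHCR7 and FADS2 in Z-138 (2.74%). In JVM-13 they were found for ACAT2, MVD, ACACA and ELOVL6 (32.7%). None was found in REC-1 (3.56%), GRANTA-519 (8.13%), Maver-1 (3.05%) or JVM-2 (2%) on that scale. As raw intensities some dim members there were further apart, such as SREBF1 in GRANTA-519, FADS2 in REC-1 and MVD in Maver-1, whose pairs are given above.

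The second comparison asked whether the response differed between the labels. The difference of the response, sensitive minus insensitive lines, passed the threshold for 0 of 30 members and 0 of 12305 genes (0%), and an unadjusted p under 0.05 was reached by 0 members and 1.48% of genes (without JVM-13, 0 members and 2.79% of genes). With 8 lines the smallest p among members belonged to ACACA, whose mean response was -0.29 in the 2 sensitive and 0.41 in the 6 insensitive lines, a difference of -0.70 ± 0.38 (SE; limma adjusted p = 1.0). ACLY followed, with -0.44 and 0.10 and a difference of -0.54 ± 0.31 (limma adjusted p = 1.0). Without JVM-13 the difference was -0.51 ± 0.26 for ACACA and -0.47 ± 0.27 for ACLY, and SC5D (-0.57 ± 0.27) and ELOVL6 (-0.36 ± 0.18) had smaller p-values than either. The mean of all probe sets of ACACA gave -0.23 ± 0.35. INSIG2 differed by 0.12 ± 0.31, FDPS by -0.01 ± 0.21, EBP by 0.19 ± 0.19 and SCD by -0.03 ± 0.18. With only 2 sensitive lines these standard errors leave room for sizeable differences in either direction.

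The third comparison set the DMSO levels of the sensitive lines against those of the insensitive lines. No member passed the threshold, and 1 of 12305 genes did (0.00813%). An unadjusted p under 0.05 was reached by 2 of 30 members against 5.7% of genes, and without JVM-13 by the same 2 against 6.87%. Both sensitive lines lay below all 6 insensitive lines for 3 of 30 members, INSIG2, FDPS and EBP, which held for 3.49% of all genes, and above them for 0 of 30, which held for 5.68%.

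INSIG2 had DMSO intensities of 249 in REC-1 and 190 in SP49, and 593 in GRANTA-519, 521 in HBL-2, 390 in JVM-2, 593 in JVM-13, 556 in Maver-1 and 371 in Z-138. The groups do not overlap, and the means were 219 ± 41.6 (SD, n = 2) and 504 ± 99.6 (SD, n = 6). The log2 difference was -1.18 ± 0.36 (SE; limma unadjusted p = 0.0085, adjusted p = 0.71) and -1.12 ± 0.32 without JVM-13. With AFN700 the same 2 lines, at 288 and 178, were again below the 6 others, the nearest of which was Z-138 at 355.

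FDPS had DMSO intensities of 1442 in REC-1 and 1607 in SP49, and 2410 in GRANTA-519, 2592 in HBL-2, 2247 in JVM-2, 2429 in JVM-13, 1822 in Maver-1 and 1863 in Z-138. The means were 1525 ± 116 (SD, n = 2) and 2227 ± 318 (SD, n = 6), without overlap. The log2 difference was -0.54 ± 0.19 (SE; limma unadjusted p = 0.018, adjusted p = 0.83) and -0.51 ± 0.18 without JVM-13. EBP had 1592 in REC-1 and 1594 in SP49, and 2779 in GRANTA-519, 2821 in HBL-2, 2067 in JVM-2, 2136 in JVM-13, 1908 in Maver-1 and 1704 in Z-138. The difference was -0.46 ± 0.22 (SE; limma adjusted p = 0.88) and -0.47 ± 0.22 without JVM-13, and the gap to the nearest insensitive line, Z-138, was small. On the AFN700 arrays EBP overlapped between the labels, with 1949 in REC-1 and 1509 in Z-138. The promoters of FDPS and EBP each hold 3 CCAAT matches, and INSIG2 holds none in either of its windows. MVK and NSDHL hold 5 each, and their DMSO differences were -0.05 ± 0.58 and -0.17 ± 0.29 (SE). A link between these matches and the levels was not tested.

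SCD, next by p, had 2657 in REC-1 and 2016 in SP49. The insensitive lines had 2654 in GRANTA-519, 2930 in HBL-2, 2639 in JVM-2, 3250 in JVM-13, 2134 in Maver-1 and 2821 in Z-138. These groups overlap, and the difference was -0.23 ± 0.18 (SE; limma adjusted p = 0.91) and -0.18 ± 0.16 without JVM-13.

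**Figure D4:**
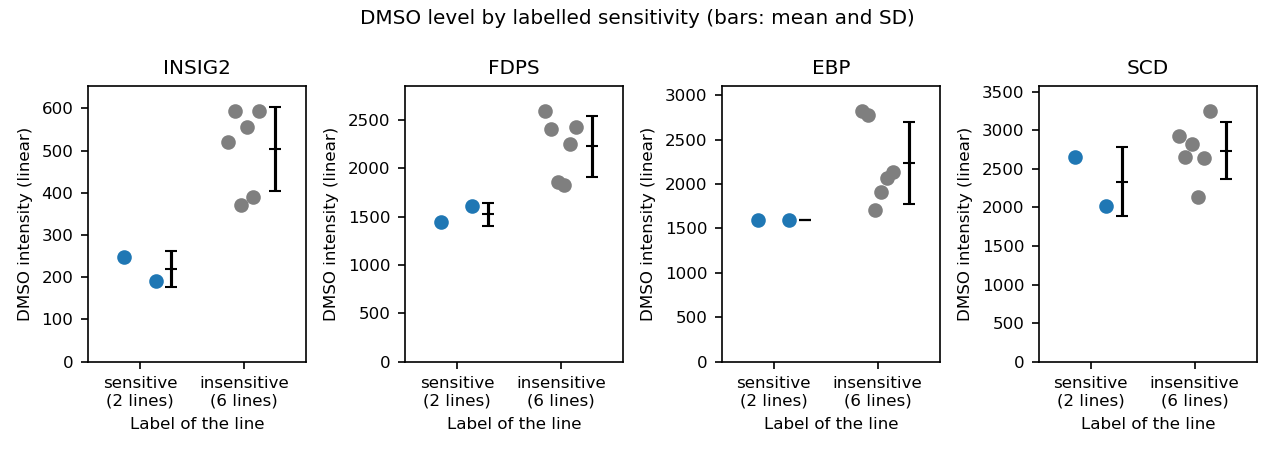
DMSO intensity (linear axis from 0) of INSIG2, FDPS, EBP and SCD in the 2 sensitive lines (blue) and the 6 insensitive lines (grey), each point a line, with the mean and SD beside the points. The sensitive points lie below all insensitive points for INSIG2, FDPS and EBP. For SCD, REC-1 lies among the insensitive points and SP49 below them.

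The levels of most members differed between lines. A limma F-test of the line terms in the model of all 16 arrays, added after the levels had been seen, called 22 of 30 members at an adjusted p under 0.05 against 72.4% of all genes tested, so the share of members was near that of genes in general. Without JVM-13 it called 28 of 30, against 84.6% of 12160 genes. The smallest adjusted p-values were those of ABCA1 (8.0e-08), SC5D (8.1e-06), STARD4 (1.9e-05), FADS2 (5.1e-05) and SQLE (6.5e-05). This test treats the 2 arrays of a line, which differ by treatment, as its repeats. SREBF1, SCAP, MVD, LSS, NSDHL, HSD17B7, ACACA and ACLY did not pass with 8 lines, and LSS and NSDHL did not pass with 7.

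Z-138 was the line with the lowest DMSO value for 8 of 23 sterol genes (10.3% of all genes are lowest there), and it stayed lowest with AFN700 for 5 of them, MSMO1, NSDHL, SC5D, DHCR7 and STARD4. With AFN700 12.6% of all genes were lowest there. SC5D was 96.2 in Z-138 with DMSO, and 256 in Maver-1, 436 in SP49, 671 in GRANTA-519, 794 in HBL-2, 797 in JVM-2, 889 in JVM-13 and 935 in REC-1. With AFN700 it was 118 in Z-138 and 358 to 1040 in the others. Both arrays of Z-138 were thus below all 14 others for SC5D, with Maver-1 next. STARD4 had the same lowest line, at 133 and 187 on its 2 arrays against 307 to 1062 on the other 14, and for DHCR7 the 2 values were 22.1 and 54.1 against 62.5 to 348. The genes that were low in Z-138 with DMSO also had positive differences there, and both values share the DMSO array.

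ABCA1 ran the other way, with its highest DMSO value in Z-138. From the top, the values were 422 (Z-138), 265 (HBL-2), 255 (Maver-1), 253 (GRANTA-519), 67.3 (SP49), 18.2 (REC-1), 16.8 (JVM-2) and 0.5 (JVM-13). HBL-2, Maver-1 and GRANTA-519 were close together, and JVM-13, JVM-2 and REC-1 were near background on both arrays. FADS2 was also near background in 3 lines, at 2.5 in REC-1, 4.4 in Z-138 and 8.8 in Maver-1 with DMSO, against 62.3 to 155 in the others.

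**Figure D5:**
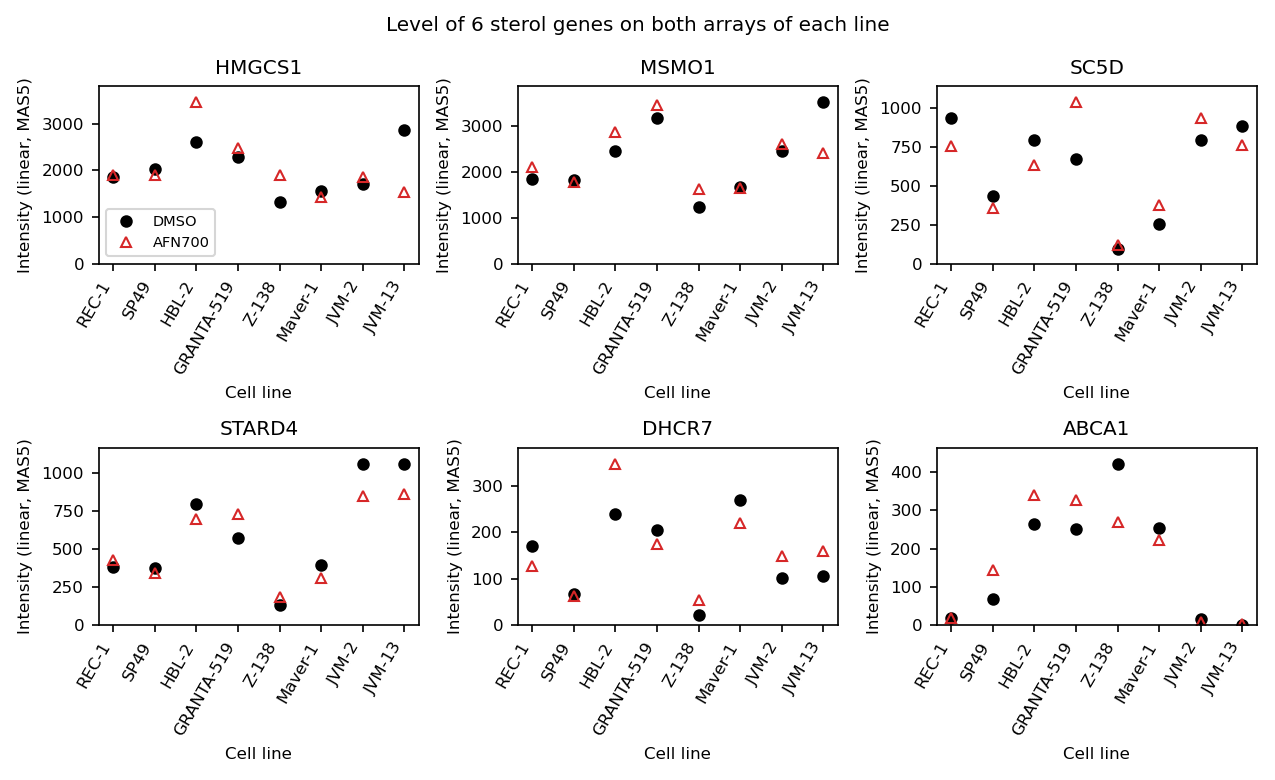
Intensity (linear axis from 0) of HMGCS1, MSMO1, SC5D, STARD4, DHCR7 and ABCA1 in the 8 lines, black circles for DMSO and open red triangles for AFN700, 1 array each. Z-138 is lowest for MSMO1, SC5D, STARD4 and DHCR7 on both arrays and highest for ABCA1 with DMSO, and in JVM-13 the circles of HMGCS1 and MSMO1 stand well above the triangles.

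Maver-1 was lowest for 7 of 23 sterol genes with DMSO (8.29% of all genes) and for 6 with AFN700 (8.69%). ACAT2, PMVK, IDI1 and SQLE were lowest there on both arrays. The actin 3′/5′ ratio was 10.3 and 18.8 on these arrays, and its part in the low values was not tested. SQLE was 540 and 639 in Maver-1 and 674 and 988 in Z-138, against 976 to 2369 on the 12 other arrays. GRANTA-519 was highest with DMSO for SREBF2, ACAT2, MVK and TM7SF2 (10.4% of all genes). JVM-13 was highest with DMSO for 11 of 23 sterol genes, among them HMGCS1, MVD, IDI1, SQLE, LSS and MSMO1 (17.2% of all genes). With AFN700 it was highest for 5 (12.9%), and SQLE, LSS and STARD4 were highest there on both arrays. Since the DMSO array of JVM-13 is unusual, no order is drawn from it.

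The DMSO level of HMGCS1 was set against that of the other members over the 8 lines, as a description with no test. MSMO1 was most like it (r = 0.86), followed by SQLE (0.85), IDI1 (0.84), MVD (0.83) and SC5D (0.75). Without JVM-13 these correlations were 0.78, 0.77, 0.75, 0.73 and 0.74 over 7 lines. The AFN700 minus DMSO difference of HMGCS1 was also closest to that of MSMO1 (r = 0.97, and 0.90 without JVM-13), followed with 8 lines by HSD17B7 (0.93). Without JVM-13, DHCR7 (0.85) and ACACA (0.78) came before HSD17B7 (0.76). All these points share the array on which both genes were read and its scaling.

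Genes around the pathway that are no members were read from 6 lists, and none of their genes passed the threshold in any of the 3 comparisons. For the response over 8 lines, 62.9% of all genes tested had a mean above 0 and 8.18% an unadjusted p under 0.05. Of the genes that process or degrade SREBPs 3 of 6 were tested. MBTPS1 and MBTPS2, the Golgi proteases that cleave SREBPs, had mean responses of 0.21 ± 0.14 and 0.21 ± 0.20 (SE), or 0.16 ± 0.12 and 0.004 ± 0.11 without JVM-13. Of other sterol and isoprenoid genes 9 of 12 were tested, with 6 above 0 and a median response of 0.07 against 0.06 over all genes. ERG28, a scaffold of the C4 demethylation complex, had 0.20 ± 0.07 (limma adjusted p = 0.56), and PDSS2, of ubiquinone synthesis, 0.41 ± 0.27, with 109 and 774 in JVM-13 and a mean of 0.07 ± 0.09 without that line.

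The list of sterol transport, storage and liver X receptor genes had 10 of 11 genes tested, all 10 with a mean response above 0, a median of 0.18 against 0.06 over all genes, and 2 at an unadjusted p under 0.05. NR1H3, which encodes liver X receptor alpha, was dim and went from a range of 5.9 to 134 with DMSO to 36.6 to 165 with AFN700. It was higher in 7 of 8 lines, with Z-138 at 53.3 and 48.7, and the mean was 0.65 ± 0.24 (SE; limma adjusted p = 0.55) and 0.44 ± 0.18 without JVM-13. NPC2, which hands cholesterol out of lysosomes, was 1519 and 2338 in REC-1, 1268 and 1799 in SP49, 1597 and 2036 in GRANTA-519, and 1360 and 1501 in HBL-2 with DMSO and AFN700. It was 1458 and 1481 in JVM-2, 2931 and 2122 in JVM-13, 1440 and 2161 in Maver-1, and 983 and 1331 in Z-138. AFN700 was thus higher in 7 of 8 lines and lower in JVM-13, with a mean of 0.27 ± 0.12 and 0.38 ± 0.08 without that line (SE; limma adjusted p = 0.59 and 0.094).

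Of the genes for acetyl-CoA supply, fatty acid activation and elongation 14 of 16 were tested, with 8 above 0. ACSL5, an acyl-CoA synthetase, had 0.31 ± 0.10 (SE; limma unadjusted p = 0.0083, adjusted p = 0.51) and was higher with AFN700 in 7 of 8 lines, with 1051 and 1046 in GRANTA-519. SCD5, a desaturase related to SCD, had 0.41 ± 0.16 (limma adjusted p = 0.56) and 0.30 ± 0.13 without JVM-13. It was higher with AFN700 in all 8 lines, as were 1.98% of all genes tested. The pairs were close in Z-138 (622.4 and 641.5) and Maver-1 (29.9 and 32.0). All 6 glycerolipid genes were tested, with DGAT2 at -0.30 ± 0.15 and AGPAT1 at 0.30 ± 0.21, the latter 0.08 ± 0.11 without JVM-13. Of the fatty acid oxidation genes 6 of 7 were tested, with ACADVL at -0.44 ± 0.24 and CPT1A at 0.29 ± 0.19, the latter 0.11 ± 0.13 without JVM-13.

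In the difference of the response between the labels, the smallest unadjusted p in these lists was that of ME1, the malic enzyme, at -1.12 ± 0.42 (SE; limma unadjusted p = 0.020, adjusted p = 1.0), which was near background in 4 of the 8 lines. The other genes named by p had unadjusted p-values above the threshold. RNF139 differed by 0.24 ± 0.39, MBTPS2 by -0.53 ± 0.46, LBR by 0.29 ± 0.14, ERG28 by -0.16 ± 0.17, NPC2 by 0.38 ± 0.25, SOAT1 by 0.45 ± 0.35 and ACACB by 0.80 ± 0.38. With DMSO and AFN700, ACACB was near background in JVM-2 (6.1 and 5.9) and JVM-13 (1.7 and 0.4). LPIN1 differed by 0.58 ± 0.33, GPAM by -0.58 ± 0.34, ACADM by -0.55 ± 0.43 and ACADVL by 0.64 ± 0.56 (SE). Without JVM-13 the values that moved by over 1.5 times were those of RNF139 (0.02 ± 0.24), MBTPS2 (-0.27 ± 0.26), NPC2 (0.26 ± 0.17), SOAT1 (0.26 ± 0.21) and ACADM (-0.30 ± 0.24). In the DMSO levels, LPIN1, a phosphatidate phosphatase, was 230.3 in REC-1 and 655 in SP49 against 848 to 1460 in the insensitive lines, a difference of -1.57 ± 0.41 (SE; limma adjusted p = 0.59). SOAT1, which esterifies cholesterol for storage, was 336 and 412 against 621 to 1126, a difference of -1.17 ± 0.31 (limma adjusted p = 0.59). GPAM, which starts glycerolipid synthesis, was 358 and 295 against 128 to 174, a difference of 1.04 ± 0.38 (limma adjusted p = 0.84). LBR, which has sterol reductase activity, was 2847 and 2604 against 3115 to 3936, a difference of -0.36 ± 0.13 (limma adjusted p = 0.83). These 4 genes were picked for their small p, and 3.49% of all genes lay below and 5.68% above all insensitive lines in both sensitive lines. The other genes named by p follow. HACD3 differed by -0.73 ± 0.33, MYLIP by -0.66 ± 0.30, FNTA by 0.35 ± 0.17, ELOVL7 by 1.93 ± 1.05, HADHB by 0.41 ± 0.29, HADHA by 0.45 ± 0.40, MBTPS1 by -0.33 ± 0.48 and MBTPS2 by 0.65 ± 0.65 (SE), the last 0.28 ± 0.33 without JVM-13. ELOVL7 was 70.3 in REC-1, 11.2 in SP49 and 49.4 in GRANTA-519, and near background in the other insensitive lines. MYLIP, at 841 and 771 against 933 to 2071, and FNTA, at 2221 and 1905 against 1430 to 1828, also lay apart by label.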

How the data were processed

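RNA of 8 cell lines was measured on 16 Affymetrix arrays. The authors deposited intensity values on a linear scale. The submitters' processing notes name MAS5 as the tool, and its version is not given in the sources used here. Each array has a trimmed mean of about 150.02, so the arrays were scaled globally, and no further scaling was applied. Depth has no counterpart on arrays, and their number limits the precision. Of 54675 probe sets, 41091 name 1 gene, 1801 several, and 62 are controls. Probe sets named for 1 gene gave 19775 genes, symbols updated through RefSeq.

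Intensities were taken to log2(intensity + 3.3), where 3.3 is the 25th percentile of all values. A gene was tested where 2 or more arrays had it above the 60th percentile of all probe sets. Tests used limma 3.58.1 in R 4.3.3 (lmFit, eBayes with trend), with the line as a fixed block because both arrays come from the same cell line, and Benjamini-Hochberg adjustment over all genes. SE is the moderated standard error. The fit was tested on simulated data.

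Members, lists and markers were chosen with earlier results of these data known. Full values were given for the 4 sterol and 3 fatty acid members with the largest mean differences, the 4 members with the smallest p in the DMSO comparison, and 2 genes of smallest p were named from each related list. HMGCS1, INSIG1, IDI1, ACAT2, ABCA1, SC5D and other members given by line were picked after their values were seen. The F-test between lines and the values of other probe sets were added after seeing the data. Figures used matplotlib 3.10.9.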

Additional observations from a re-analysis of the deposited data

Results flagged for a closer look

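Among 60 groups of 8 lines (30 DMSO levels and 30 differences), 7 held a line whose gap to the nearest other line was large against the whole range, all 7 of them AFN700 minus DMSO. Chance alone marks about 1 in 20 such groups. JVM-13 was the line in 5 of the 7, and its DMSO array also stood apart over all genes. There the log2 difference was -0.91 for HMGCS1 (-0.13 to 0.51 in the 7 other lines), -3.12 for MVD (-0.90 to 0.80), -0.64 for IDI1 (0.01 to 0.37), -0.55 for MSMO1 (-0.03 to 0.41) and 2.05 for ELOVL6 (-0.47 to 0.08). A further probe set of ELOVL6 gave 1.74 in JVM-13 and the dimmest -0.44. PMVK was -1.54 in HBL-2 against -0.35 to 0.37 elsewhere, on a pair of arrays whose actin 3′/5′ ratio went from 1.90 to 16.7. FADS2 was 2.50 in Z-138 against -0.37 to 0.99 elsewhere, starting from an intensity of 4.4.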

How the results depend on the processing

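No member was called in any comparison under any alternative run. The alternatives were other pseudocounts (1 and 16), other filters, quantile normalization, centring, the mean of all probe sets, no trend, no replicate block, the actin ratio as a covariate, and leaving out lines. Over all genes, the response over 8 lines went from 0 called genes to 10 without JVM-13 (0 to 10 over the fits that leave out 1 line) and 38 without JVM-13 and HBL-2. The DMSO comparison went from 1 called gene to 3 with a pseudocount of 16, 5 without a filter, 0 with the filter on all arrays, 2 with the mean of all probe sets, 8 without a trend and 0 without JVM-13 and HBL-2. It ran from 0 to 42 over the fits that leave out 1 line, the 42 without SP49. The causes were not tested. Without the replicate block, which sets aside the pairing of arrays by line, 0 genes were called and 57 had an unadjusted p under 0.05 against 1006 with it.

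Of the 7 members whose response was followed through all alternatives, 3 changed direction under at least 1. The others were read with and without JVM-13 alone, and ELOVL6 (-0.12), INSIG2 (0.04) and HSD17B7 (0.036) changed sign without it. PMVK was 0.18 with the actin covariate. MVD was 0.21 without JVM-13, 0.40 without JVM-13 and HBL-2, and 0.19 with the actin covariate. ACACA was -0.16 with the mean of its probe sets and -0.036 without JVM-13 and HBL-2. Signal near background limits SREBF1, MVD, ABCA1 and FADS2, and a design with 2 sensitive lines limits each comparison of the labels.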

Other observations

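Probe sets of one member disagreed in direction in HBL-2 and in other lines. In HBL-2, HMGCS1 was 0.41 on its brightest probe set and -1.69 on the other, and NSDHL 0.99 against -0.81. SQLE was 0.12 there against -1.89, -1.34 and -0.18, and SCD 0.30 against -0.92, -1.28 and -1.28 on dimmer ones. The actin 3′/5′ ratio differed most between the arrays of this line, and its part in these values was not tested.

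In JVM-2, where the actin ratio was 2.12 and 2.09, the values were 0.11 and 0.33 for HMGCS1, -0.23 and 0.44 for NSDHL, and 0.18, 0.16, -0.37 and -0.42 for SCD. REC-1, with actin ratios of 5.06 and 4.62, had 0.03 and -0.72 for HMGCS1 and -0.06 and 0.51 for NSDHL. Its SCD values were 0.13, 0.09, -1.24 and -0.69. LSS kept its direction in HBL-2 on 2 of 3 probe sets, at 1.19 and 1.89 against -0.12. INSIG1, with a mean of 0.15 on its brightest probe set, had 0.12 and -0.13 on the others, with 1.25 and 1.67 in JVM-13.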
